A study of Mus musculus with 6 samples.

Results

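The Sult2a and Sult3a genes of the mouse encode cytosolic sulfotransferases, and their transcripts were measured in livers that had received an adenovirus carrying mouse Dyrk1b. The genes were chosen by symbol, as every gene of the table named Sult2a or Sult3a followed by a number, which gave 10 of 22274 genes, 8 of them Sult2a and 2 Sult3a. RNA of 6 livers of C57 mice was sequenced as enriched mRNA. In 3 of them the mice had received Ad-Dyrk1b, an adenovirus that overexpresses mouse Dyrk1b, a protein kinase, and in 3 they had received Ad-EGFP, the control adenovirus. All 6 livers had therefore received a virus, and no uninfected liver was analysed here. The labels give no age, sex, virus dose, promoter or time after infection. Nothing in them says that each liver was from a mouse of its own, so the p-values rest on the spread between the samples as deposited, some of which may be technical. Ad-Dyrk1b comprised replicates 1, 2 and 3, and Ad-EGFP likewise.

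Cytosolic sulfotransferases move a sulfate group from the donor PAPS to a hydroxyl or amino group of a small molecule, which makes it more soluble in water and easier to excrete. Sult2a enzymes act on hydroxysteroids such as dehydroepiandrosterone and on bile acids, and Sult3a1 is known in the mouse for sulfation of amines. In mouse liver several of these genes are known as female-predominant, under the control of growth hormone, and rodent Sult2a genes are known targets of the nuclear receptors CAR, PXR and FXR.

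The Sult2a genes lie in a cluster at chr7:13623967-14494230 and the Sult3a genes at chr10:33766424-33879532 (mm10, GENCODE M21 gene models). Several copies are so alike that a short read may not tell them apart. The coding sequence of Sult2a1 was 97.9% identical to that of Sult2a2, 94.9% to Sult2a5, 93.7% to Sult2a3, 81.2% to Sult2a7 and 69.1% to Sult2a8. Sult3a1 and Sult3a2 were 90.9% identical to each other, and Sult3a1 was 52.1% identical to Sult2a1. The first 90 coding bases are shown 5′ to 3′ from the GENCODE M21 transcripts, for Sult2a1, its near copies, the more distant Sult2a7 and the Sult3a pair, because they show how far apart the copies are. Capitals mark bases that differ from Sult2a1 in the Sult2a genes and from Sult3a1 in Sult3a2.
Sult2a1: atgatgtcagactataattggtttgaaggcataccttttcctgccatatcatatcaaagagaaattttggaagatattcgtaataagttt
Sult2a2: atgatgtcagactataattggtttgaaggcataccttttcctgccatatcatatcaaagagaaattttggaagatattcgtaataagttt
Sult2a5: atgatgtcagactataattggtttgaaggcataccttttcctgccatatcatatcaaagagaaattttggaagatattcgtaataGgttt
Sult2a3: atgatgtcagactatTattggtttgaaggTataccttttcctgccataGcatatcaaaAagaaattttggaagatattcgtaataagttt
Sult2a7: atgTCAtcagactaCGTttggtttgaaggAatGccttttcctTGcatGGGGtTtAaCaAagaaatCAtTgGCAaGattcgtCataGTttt
Sult3a1: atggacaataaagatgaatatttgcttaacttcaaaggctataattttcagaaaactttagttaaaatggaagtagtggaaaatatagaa
Sult3a2: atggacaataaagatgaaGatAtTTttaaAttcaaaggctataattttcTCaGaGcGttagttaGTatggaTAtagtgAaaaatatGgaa
In this stretch Sult2a2 had 0 differences from Sult2a1, Sult2a5 had 1, Sult2a3 had 4 and Sult2a7 had 28, and Sult3a2 had 16 from Sult3a1. Over whole transcripts, 34.6% of the 100-base windows of Sult2a2, 16.6% of those of Sult2a5 and 11.4% of those of Sult2a1 also occurred, letter for letter, in another gene. At 150 bases these shares were 20.6%, 7.47% and 6.31%. For Sult2a3, Sult2a6, Sult2a7, Sult2a8, Sult3a1 and Sult3a2 no such window was found at either length, with exact matches only. The sources used here do not give how reads that match several copies were treated. The single values of Sult2a1, Sult2a2 and Sult2a5 are therefore uncertain, and their family sum is given below. No member overlaps another protein-coding gene in GENCODE M21.

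Dyrk1b, the overexpressed gene, had 62.2, 101 and 96.5 FPKM in Ad-Dyrk1b livers and 3.81, 4.97 and 4.16 FPKM in Ad-EGFP livers, where FPKM is a level scaled to gene length and library size. It rose by 4.49 ± 0.24 on the log2 scale (edgeR adjusted p = 1.33e-05). Counts of this gene hold viral and mouse transcripts together. The libraries held 17326516 to 20024888 counts, and 3 counts correspond to 0.150 to 0.173 CPM (counts scaled to the library total). Of 13201 genes tested across the 6 libraries, 972 were called higher and 635 lower with Ad-Dyrk1b, and 60.5% of these calls were higher. With limma on log2(FPKM + 1) the split was 556 higher and 702 lower, or 44.2% higher.

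All 8 members that passed the low-count filter were called higher in the Ad-Dyrk1b livers at an edgeR adjusted p under 0.05, and 0 were called lower. Over all tested genes, 7.36% were called higher and 4.81% lower. Likewise, all 3 Ad-Dyrk1b livers exceeded all 3 Ad-EGFP livers in the FPKM of these 8 members, which held for 10.9% of the tested genes. The median log2 fold change was 2.12 over the 8 members and -0.00498 over all tested genes. Sult3a1 and Sult3a2 reached the filter in 0 Ad-EGFP libraries and Sult2a7 in 1. They could be tested only because they were high in Ad-Dyrk1b livers, and they had the largest folds of the tested members. The counts and the median of the 8 members are therefore descriptions. The other tested members had log2 fold changes from 0.80 (Sult2a2) to 2.72 (Sult2a3). In a bulk sample, more RNA per cell and a larger share of the cells that express a gene cannot be told apart. The remaining members, Sult2a4 and Sult2a6, had too few counts to be tested.

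**Figure D1:**
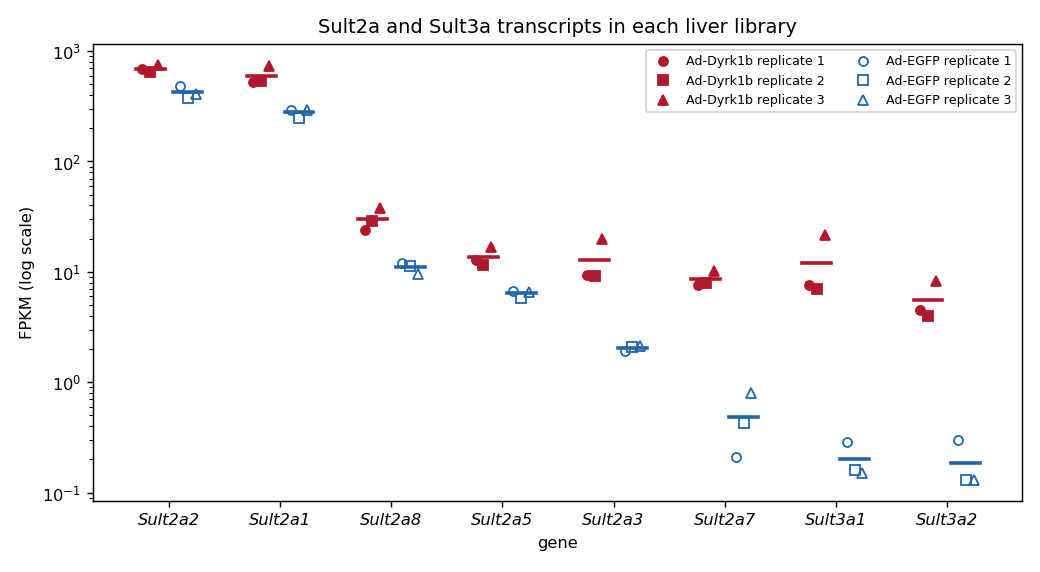
FPKM on a log scale of the 8 tested Sult2a and Sult3a genes, ordered by their Ad-EGFP mean, in each Ad-Dyrk1b library (filled) and each Ad-EGFP library (open). Horizontal lines are means of 3 libraries, and for each gene all filled points lie above all open points.

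The plot of levels by library shows 2 abundant members, Sult2a1 and Sult2a2, well above the rest. Sult2a1 is the hydroxysteroid sulfotransferase for which the subfamily is best known. It had 526, 531 and 731 FPKM in Ad-Dyrk1b livers and 292, 250 and 295 FPKM in Ad-EGFP livers. The groups did not overlap, and Ad-Dyrk1b replicate 3 was the highest. Sult2a1 averaged 596 ± 117 FPKM with Ad-Dyrk1b and 279 ± 25.5 FPKM with Ad-EGFP (SD, n = 3 each), and the log2 fold change was 1.18 ± 0.15 (edgeR adjusted p = 0.000449). Sult2a2, its closest copy, had 691, 643 and 753 FPKM in Ad-Dyrk1b livers and 488, 375 and 410 FPKM in Ad-EGFP livers. These groups did not overlap either. Its log2 fold change was 0.80 ± 0.13 (edgeR adjusted p = 0.00217), the smallest of the 8 tested members. Sult2a2 stood above Sult2a1 per length in all 6 libraries. That order rests on the annotated length, since the Sult2a2 model is 741 bases long with 582 coding bases, whereas the Sult2a1 model has 1020 bases with 855 coding bases.

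In counts the order of these genes differed between the groups. Sult2a1 had 1.05, 1.14 and 1.34 times the counts of Sult2a2 in Ad-Dyrk1b livers and 0.825, 0.917 and 0.993 times in Ad-EGFP livers. Sult2a1 thus held more counts than Sult2a2 in every Ad-Dyrk1b library and fewer in every Ad-EGFP library, a difference that was not tested. Sult2a5 is a copy at the other side of Sult2a2, at chr7:13623967-13670807. It had 12.8, 11.5 and 16.9 FPKM in Ad-Dyrk1b livers and 6.73, 5.85 and 6.63 FPKM in Ad-EGFP livers, with no overlap. Its log2 fold change was 1.18 ± 0.18 (edgeR adjusted p = 0.00144). Its counts kept close to those of Sult2a1, at 0.0221 to 0.0249 of them in Ad-Dyrk1b livers and 0.0230 to 0.0240 in Ad-EGFP livers. The part of reads shared between these copies was not tested.

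Sult2a8, at chr7:14410686-14446769, encodes a mouse enzyme known to sulfate bile acids. It was the third member by level, at 23.9, 28.7 and 37.9 FPKM in Ad-Dyrk1b livers and 11.9, 11.3 and 9.63 FPKM in Ad-EGFP livers. Every Ad-Dyrk1b liver was above every Ad-EGFP liver. The log2 fold change was 1.53 ± 0.16 (edgeR adjusted p = 0.000114).

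The other Sult2a genes that could be tested, Sult2a3 and Sult2a7, were at low levels in control livers. Sult2a3, at chr7:14067446-14123044, had 9.36, 9.17 and 19.8 FPKM in Ad-Dyrk1b livers and 1.92, 2.08 and 2.15 FPKM in Ad-EGFP livers. The Ad-EGFP livers were close together, and Ad-Dyrk1b replicate 3 stood apart from the other Ad-Dyrk1b livers. The log2 fold change was 2.72 ± 0.32 (edgeR adjusted p = 0.000628), and 2.25 without Ad-Dyrk1b replicate 3. Sult2a7, at chr7:14465051-14494230, had 7.67, 7.88 and 10.2 FPKM in Ad-Dyrk1b livers and 0.21, 0.43 and 0.80 FPKM in Ad-EGFP livers. Its counts were 116, 125 and 145 in Ad-Dyrk1b livers and 3, 6 and 11 in Ad-EGFP livers. The groups did not overlap, and the control values rest on few counts. The log2 fold change was 4.23 ± 0.36 (edgeR adjusted p = 2.04e-05). The ratio of pooled CPM was 17.9, with a 95% exact conditional interval of 11.4 to 29.6 that covers counting error only. Relative to Sult2a1, Sult2a7 had 0.0109 to 0.0115 of its counts in Ad-Dyrk1b livers and 0.000561 to 0.00211 in Ad-EGFP livers. The share of Sult2a7 among family reads was thus higher in every Ad-Dyrk1b library. No 100-base window of Sult2a7 was shared with another gene.

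The Sult3a genes had the largest folds of the 8 tested members. Sult3a1, an amine sulfotransferase, had 7.59, 7.04 and 21.6 FPKM in Ad-Dyrk1b livers and 0.29, 0.16 and 0.15 FPKM in Ad-EGFP livers. Its counts were 165, 154 and 413 in Ad-Dyrk1b livers and 6, 3 and 3 in Ad-EGFP livers. The groups were far apart, and Ad-Dyrk1b replicate 3 was well above the other Ad-Dyrk1b livers. The log2 fold change was 5.89 ± 0.66 (edgeR adjusted p = 0.00159), which placed it at rank 2 of 13201 genes by fold. Without Ad-Dyrk1b replicate 3 it was 5.20. The pooled CPM ratio was 56.4 (95% exact conditional interval 32.1 to 110, counting error only). Sult3a2, its close copy, had 4.49, 3.97 and 8.24 FPKM in Ad-Dyrk1b livers and 0.30, 0.13 and 0.13 FPKM in Ad-EGFP livers. The groups did not overlap, and control counts were 5, 2 and 2. Its log2 fold change was 4.94 ± 0.47 (edgeR adjusted p = 4.25e-05), at rank 8. Both Sult3a genes could be tested only because they were high in Ad-Dyrk1b livers, so their ranks by fold are descriptions. The pooled CPM ratio was 29.6 (95% exact conditional interval 15.4 to 65.4, counting error only). Sult3a1 had 2.09, 2.08 and 3.06 times the counts of Sult3a2 in Ad-Dyrk1b livers and 1.2, 1.5 and 1.5 times in Ad-EGFP livers, where both counts were small. On the log2(FPKM + 1) scale, which understates low genes, limma gave 3.28 for Sult3a1, 2.71 for Sult2a7, 2.42 for Sult3a2 and 2.09 for Sult2a3.

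Sult2a4 had 0, 2 and 2 counts in Ad-Dyrk1b livers and 0 in each Ad-EGFP liver. Both groups lay at or under 3 counts per library, so no fold is given. The authors' deposited table lists it with a log2 ratio of 6.13 and an adjusted p of 0.697, from a mean of 0.07 FPKM in Ad-Dyrk1b livers and an entry of 0.001 FPKM in Ad-EGFP livers. Sult2a6 had 7, 1 and 5 counts in Ad-Dyrk1b livers and 7, 0 and 5 in Ad-EGFP livers. Its pooled CPM ratio was 1.0 (95% exact conditional interval 0.422 to 2.40, counting error only), so the counts do not exclude a ratio within that interval.

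All 8 tested members had their highest FPKM in Ad-Dyrk1b replicate 3. That library also stood apart from the others on the second principal component, at -26.7. Ad-EGFP replicate 3 was at -12.0 there, and the remaining libraries had positive values. The 6 erythroid markers together had 886, 1044 and 3694 CPM in Ad-Dyrk1b livers and 528, 716 and 875 CPM in Ad-EGFP livers. None of the 6 was called, and their part in the members' values was not tested. Without Ad-Dyrk1b replicate 3 the 8 members kept their calls, with log2 fold changes of 1.0 for Sult2a1, 0.73 for Sult2a2, 0.996 for Sult2a5, 1.38 for Sult2a8, 4.08 for Sult2a7 and 4.54 for Sult3a2 beside those above.

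The family sums do not depend on how reads were divided between copies within a family. They would change if reads that match several copies were left out or counted more than once, which is not known here. The Sult2a genes together had 1127, 1105 and 1420 CPM in Ad-Dyrk1b livers and 693, 563 and 635 CPM in Ad-EGFP livers. The groups did not overlap, and the means were 1217 ± 176 CPM in Ad-Dyrk1b and 630 ± 65.4 CPM in Ad-EGFP livers (SD, n = 3 each). This was 1.93-fold, or 0.95 on the log2 scale. The Sult3a genes together had 12.8, 11.4 and 30.6 CPM in Ad-Dyrk1b livers and 0.613, 0.286 and 0.289 CPM in Ad-EGFP livers. The ratio of these means was 46.1, or 5.53 on the log2 scale, and 4.93 without Ad-Dyrk1b replicate 3. No test was made on the sums.

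Most of the family's reads came from the abundant copies in both groups. Sult2a1 and Sult2a2 together held 92.0%, 91.2% and 89.8% of all Sult2a and Sult3a counts in Ad-Dyrk1b livers and 95.0%, 94.6% and 95.2% in Ad-EGFP livers. The share of the other members was therefore larger in each Ad-Dyrk1b library. The Sult2a genes other than Sult2a1 and Sult2a2 summed to 94.3 ± 20.5 CPM with Ad-Dyrk1b and 31.4 ± 2.23 CPM with Ad-EGFP (SD, n = 3 each), a ratio of 3.0. Sult2a8 was the largest of them, at 4.84 ± 0.506% of family counts in Ad-Dyrk1b and 3.51 ± 0.356% in Ad-EGFP livers.

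**Figure D2:**
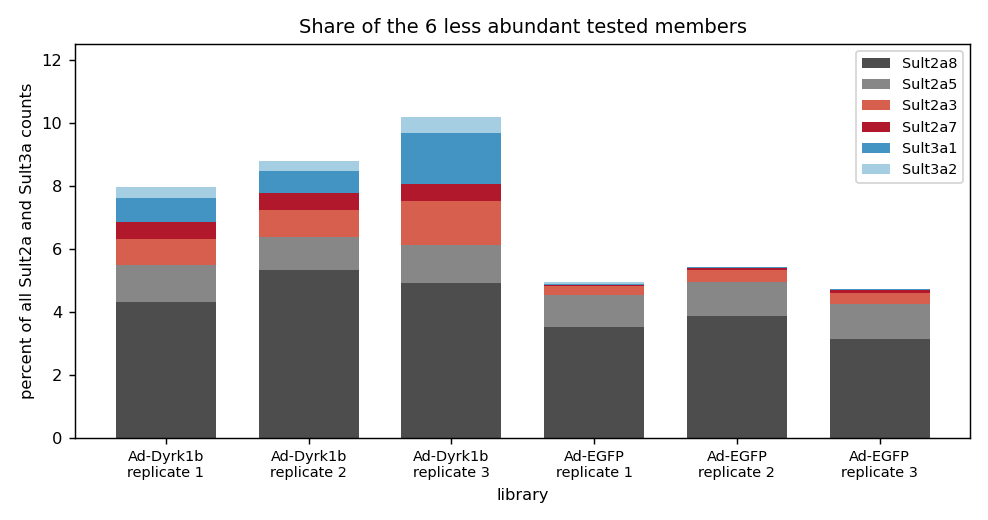
Percent of all Sult2a and Sult3a counts held by each of the 6 less abundant tested members (stacked bars), in each Ad-Dyrk1b library (left) and each Ad-EGFP library (right). The 3 Ad-Dyrk1b bars are taller than the 3 Ad-EGFP bars, and Sult3a1 holds 0.689 to 1.59% in the Ad-Dyrk1b libraries and 0.0273 to 0.0482% in the Ad-EGFP libraries.

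Genes that lie beside the members on the chromosome were read from the same fit. Within 500 kb of the Sult2a cluster, or inside it, 4 other genes were tested and 0 were called. Obox8, a homeobox gene that lies among the Sult2a genes, differed by 0.52 ± 0.24 on the log2 scale (edgeR adjusted p = 0.176), and Lig1, a DNA ligase gene, by 0.09 ± 0.11 (edgeR adjusted p = 0.631). In Obox8 FPKM every Ad-Dyrk1b liver exceeded every Ad-EGFP liver, as in 10.9% of the tested genes. Pla2g4c differed by 0.83 ± 0.43 (edgeR adjusted p = 0.223) and Zswim9 by -0.51 ± 0.33 (edgeR adjusted p = 0.336), with overlapping groups. Around the Sult3a cluster 10 genes were tested. Rsph4a, which encodes a protein of the ciliary radial spoke, starts just past Sult3a1 at chr10:33905111-33916021. It had 1.36, 1.68 and 3.19 FPKM in Ad-Dyrk1b livers and 0.15, 0.41 and 0.19 FPKM in Ad-EGFP livers. It rose by 3.14 ± 0.43 (edgeR adjusted p = 0.00155) and kept its call without any single library. Clvs2, at chr10:33512286-33624769, fell by 2.40 ± 0.68 on 7 counts in Ad-Dyrk1b and 38 in Ad-EGFP livers (edgeR adjusted p = 0.0387). Its call was lost when any 1 library was left out, with adjusted p from 0.0598 to 0.131 and log2 fold changes from -2.98 to -1.81. The remaining 8 neighbours were not called.

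**Figure D3:**
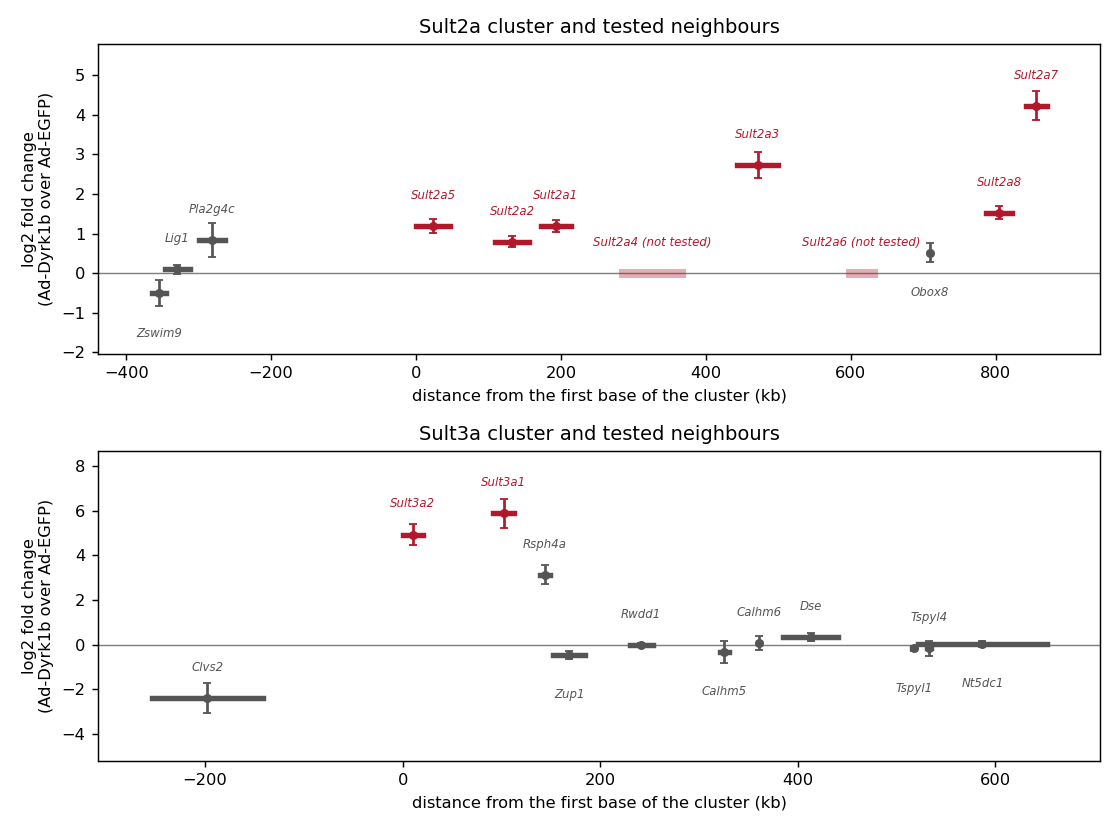
Log2 fold change (Ad-Dyrk1b over Ad-EGFP) against distance in kb from the first base of the Sult2a cluster (top) and the Sult3a cluster (bottom). Bars span each gene, vertical lines are ± 1 standard error, members are red and other tested genes grey; Sult2a4 and Sult2a6, not tested, are pale bars drawn at 0. Red points lie between 0.80 and 5.89, and in the lower panel Rsph4a, next to Sult3a1, lies at 3.14.

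The windows before the start sites were searched for motifs known for these genes. RefSeq windows (GRCm38.p6, 250 bases before to 50 after the start) were at hand for 7 members, Sult2a8 with 2 windows, and not for Sult2a1, Sult2a2 or Sult2a7. An inverted repeat of nuclear receptor core sites, of the kind described for rodent Sult2a promoters, was taken from the Sult2a5 window, where it reads GGTCATGAACT, after the promoter letters were seen. It was found without a mismatch in 7 of 32851 windows (0.0213%) and with at most 1 mismatch in 149 (0.454%), searched on both strands. Of the 8 member windows, 2 held it without a mismatch and 4 with at most 1. The match in Sult2a5 was fixed by taking the element from that window, and the others lie in copies of the same family. The member windows are thus not independent, and their counts are no measure of enrichment over all windows. The stretches around the element are shown with it in capitals, on the gene's own strand. They were chosen because the copies that hold the element include both members that rose and members that were barely detected. They lie at chr7:13623751-13623871 (Sult2a5, plus strand), chr7:14255010-14255120 (Sult2a6, minus strand), chr7:14123167-14123287 (Sult2a3, minus strand) and chr7:13989763-13989838 (Sult2a4, minus strand).
Sult2a5: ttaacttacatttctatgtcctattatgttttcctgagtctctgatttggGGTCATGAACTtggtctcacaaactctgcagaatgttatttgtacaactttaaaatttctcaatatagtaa
Sult2a6: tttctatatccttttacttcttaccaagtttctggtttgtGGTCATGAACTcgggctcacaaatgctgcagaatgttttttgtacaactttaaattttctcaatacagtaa
Sult2a3: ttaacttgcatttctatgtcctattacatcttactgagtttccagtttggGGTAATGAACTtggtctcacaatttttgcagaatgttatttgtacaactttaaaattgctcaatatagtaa
Sult2a4: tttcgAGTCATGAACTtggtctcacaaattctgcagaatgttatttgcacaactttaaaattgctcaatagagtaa
Counting from 1 at the 5′ end of the element, Sult2a3 differed from it by C4A and Sult2a4 by G1A. The element began 166 bases before the start site in Sult2a5, 210 in Sult2a6, 189 in Sult2a3 and 245 in Sult2a4. Sult2a5 and Sult2a3 had log2 fold changes of 1.18 and 2.72, while Sult2a6 and Sult2a4 had at most 7 counts in a library. The nuclear receptor core site AGGTCA was found in 16.3% of all windows and in 1 of the 8 member windows, of Sult2a8. The STAT5 palindrome TTCNNNGAA was in 8.30% of windows and in that of Sult3a1 among the members. The core of HNF6 and CUX2 sites, ATTGAT, was in 7.54% of windows and in 2 member windows, of Sult2a8 and Sult3a1. A match is a description of letters and not a binding site.

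Of the other cytosolic sulfotransferases, 5 were tested, of which 1 was higher and 1 lower, with a median log2 fold change of 0.28. Across all tested genes 7.36% were called higher and 4.81% lower. Sult1a1, a phenol sulfotransferase, had 377, 419 and 394 FPKM in Ad-Dyrk1b livers and 195, 184 and 213 FPKM in Ad-EGFP livers. It rose by 1.09 ± 0.12 (edgeR adjusted p = 9.45e-05). Sult1e1, the estrogen sulfotransferase, had 73.4, 67.9 and 77.2 FPKM in Ad-Dyrk1b livers and 140, 169 and 169 FPKM in Ad-EGFP livers. It fell by 1.05 ± 0.11 (log2 fold change -1.05, edgeR adjusted p = 7.75e-05). Neither pair of groups overlapped. Sult1b1 and Sult1c2 had log2 fold changes of 0.28 ± 0.14 and 0.33 ± 0.20 and were not called (edgeR adjusted p = 0.198 and 0.302).

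Genes that make or move the sulfate donor were read from the same fit. Of 11 tested genes of PAPS synthesis and sulfate supply, 2 were higher and 0 lower, with a median of 0.17. Over all tested genes 7.36% were called higher. Papss2, a PAPS synthase, had 53.7, 65.8 and 58.5 FPKM in Ad-Dyrk1b livers and 46.6, 47.9 and 41.4 FPKM in Ad-EGFP livers, and rose by 0.48 ± 0.12 (edgeR adjusted p = 0.0261). Slc26a1, a sulfate transporter of the hepatocyte, had 31.3, 31.7 and 36.1 FPKM in Ad-Dyrk1b livers and 28.1, 27.1 and 25.7 FPKM in Ad-EGFP livers, and rose by 0.39 ± 0.11 (edgeR adjusted p = 0.0347). On log2 FPKM neither was called, nor was any of the 11 without Ad-Dyrk1b replicate 2 or 3 or without Ad-EGFP replicate 1 or 3, and 1 was called without Ad-EGFP replicate 2. The sulfate transporter gene Slc26a2 (0.41 ± 0.17, edgeR adjusted p = 0.126) and the PAPS transporter gene Slc35b2 (-0.25 ± 0.10, edgeR adjusted p = 0.127) were not called.

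Of 14 nuclear receptor and related genes reported to act on Sult2a genes, 1 was higher and 0 lower, with a median of -0.11. Such a count is close to the shares over all tested genes, 7.36% higher and 4.81% lower. Nr0b2, the bile acid-responsive corepressor SHP, had 75.2, 52.0 and 49.99 FPKM in Ad-Dyrk1b livers and 39.0, 35.7 and 35.8 FPKM in Ad-EGFP livers, without overlap. It rose by 0.76 ± 0.13 (edgeR adjusted p = 0.00336). Rxra, the common partner of these receptors, stood at -0.32 ± 0.10 on the log2 scale (edgeR adjusted p = 0.0588), and was called lower by DESeq2 and on log2 FPKM. Hnf4a had -0.23 ± 0.11 (edgeR adjusted p = 0.190). Ahr had -0.46 ± 0.20 (edgeR adjusted p = 0.164) and was called lower without Ad-Dyrk1b replicate 2, where the edgeR adjusted p was 0.0481 and the range over all left-out libraries 0.0481 to 0.367. Nr1i3, which encodes CAR, had 31.0, 29.3 and 41.2 FPKM in Ad-Dyrk1b livers and 34.8, 30.8 and 32.3 FPKM in Ad-EGFP livers, which overlap.

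Of 26 target genes known for CAR and PXR, 8 were higher and 1 lower, with a median of 0.36. The shares over all tested genes were 7.36% higher and 4.81% lower. Cyp2b10, a classical CAR target, rose by 1.18 ± 0.21 (edgeR adjusted p = 0.00774). Cyp2c37, another P450 gene, rose by 0.98 ± 0.13 (edgeR adjusted p = 0.000521), and its neighbour in the same family Cyp2c50 by 0.89 ± 0.16 (edgeR adjusted p = 0.00515). Gsta2, a glutathione transferase gene, rose by 0.77 ± 0.14 (edgeR adjusted p = 0.00336). All of these calls held without any single library, but the number of targets called higher was 4 when Ad-Dyrk1b replicate 2 was left out, and also without replicate 1 or 3 of Ad-EGFP. It was 12 without Ad-Dyrk1b replicate 3. The lower gene, Gadd45b, was called lower in 1 of the 6 fits that left out a library.

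**Figure D4:**
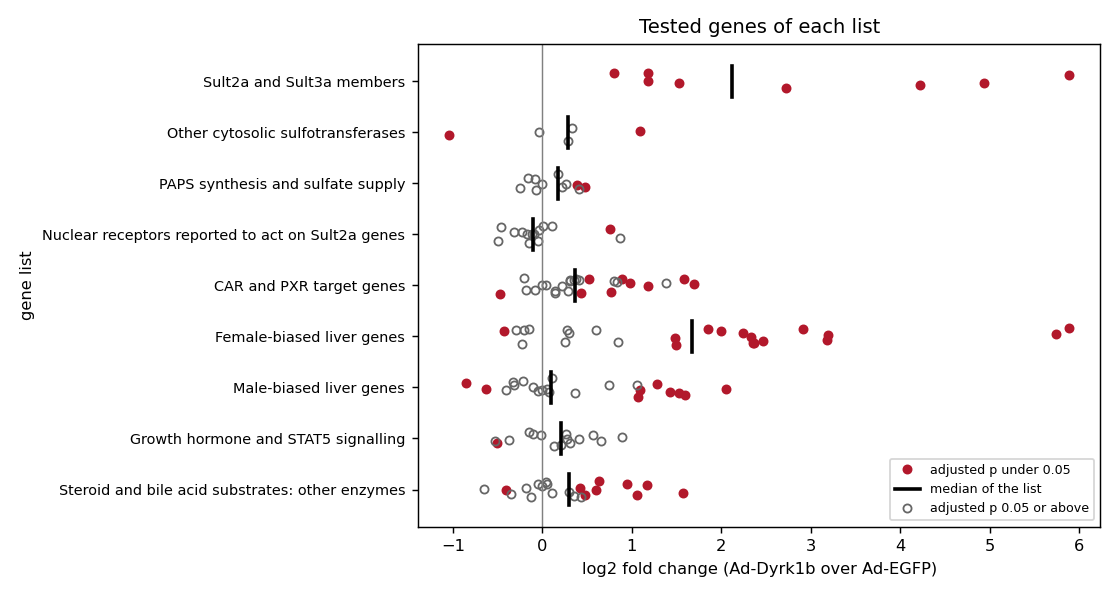
Log2 fold change (Ad-Dyrk1b over Ad-EGFP) of each tested gene in 9 lists, the Sult2a and Sult3a members first. Filled points had an adjusted p under 0.05 and open points did not. Vertical lines are medians, at 2.12 for the members and 1.67 for other female-biased liver genes. The other 7 lists had medians between -0.11 and 0.36. The members' median includes Sult2a7, Sult3a1 and Sult3a2, which could be tested only because they were high in Ad-Dyrk1b livers.

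In the plot of gene lists the median of the members is a description, as stated above. Other genes known to be higher in livers of female mice had the median nearest to it. That list was chosen with earlier results of these data known, so the nearness is a description too. Of 24 tested, 14 were higher and 1 lower, with a median log2 fold change of 1.67, beside 7.36% higher and 4.81% lower over all tested genes. Cyp2b13, a P450 gene of female liver, had 45.2, 52.0 and 47.6 FPKM in Ad-Dyrk1b livers and 6.5, 5.73 and 4.74 FPKM in Ad-EGFP livers. It rose by 3.18 ± 0.14 (edgeR adjusted p = 1.07e-07). Hao2, a peroxisomal hydroxyacid oxidase gene, rose by 3.19 ± 0.23 (edgeR adjusted p = 1.84e-05), Lepr, the leptin receptor gene, by 2.36 ± 0.15 (edgeR adjusted p = 3.02e-06), and Prom1, which encodes prominin, by 2.24 ± 0.12 (edgeR adjusted p = 7.07e-07). The lower gene was Slc22a27, an organic anion transporter gene, and that gene was not called once replicate 1 or 2 of either group was left out.

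Genes known to be higher in male liver were called in both directions. Of 22 tested, 7 were higher and 2 lower, with a median of 0.09, beside 7.36% higher and 4.81% lower over all tested genes. Elovl3, a fatty acid elongase gene, rose by 1.60 ± 0.21 (edgeR adjusted p = 0.000572). The major urinary protein genes Mup3 and Mup20 rose by 1.42 ± 0.18 and 1.07 ± 0.16 (edgeR adjusted p = 0.000695 and 0.00120), and the P450 gene Cyp4a12b by 1.53 ± 0.23 (edgeR adjusted p = 0.00130). The lower genes were Hsd3b2 and C6, at log2 fold changes of -0.760 to -0.471 and -1.01 to -0.745 over the 13 alternative fits. C6 kept its call in all of them, and Hsd3b2 lost it in 4. Without Ad-EGFP replicate 2 the number higher was 4, and leaving out replicate 1 or 3 of either group made the number lower 1. The labels give no sex, and 4 Y-linked genes (Ddx3y, Eif2s3y, Kdm5d and Uty) had 10 counts in all over the 6 libraries and at most 3 in any one.

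Of 15 genes of growth hormone and STAT5 signalling, 0 were higher and 1 lower, with a median of 0.20. Among all tested genes the shares were 7.36% higher and 4.81% lower. By DESeq2 2 were higher, and without Ad-Dyrk1b replicate 1 edgeR called 3 higher, against 1 without Ad-EGFP replicate 3. Ghr, the growth hormone receptor gene, fell by 0.51 ± 0.11 (edgeR adjusted p = 0.0132), with 52.7, 53.8 and 62.9 FPKM in Ad-Dyrk1b livers and 75.1, 71.5 and 68.0 FPKM in Ad-EGFP livers. Leaving out replicate 1 of Ad-Dyrk1b ended this call at an edgeR adjusted p of 0.0515, and leaving out replicate 1 of Ad-EGFP at 0.0639, while the other libraries gave 0.0186 or more. On log2 FPKM it was not called by limma (adjusted p = 0.0705). Cish, a feedback inhibitor induced by STAT5, had 0.57 ± 0.18 (edgeR adjusted p = 0.0648), and Ptpn1, a tyrosine phosphatase gene, 0.28 ± 0.10 (edgeR adjusted p = 0.0971). Cish was called higher at an edgeR adjusted p of 0.0403 when replicate 1 of Ad-Dyrk1b was left out and of 0.0276 when replicate 3 of Ad-EGFP was, with up to 0.191 for other libraries.

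Of 21 other genes that handle steroids and bile acids, the substrates of Sult2a enzymes, 8 were higher and 1 lower, with a median of 0.29. Beside this, 7.36% of all tested genes were called higher and 4.81% lower. Hsd11b1, the enzyme that regenerates active glucocorticoid, had 259, 285 and 337 FPKM in Ad-Dyrk1b livers and 119, 94.6 and 99.8 FPKM in Ad-EGFP livers, and rose by 1.57 ± 0.15 (edgeR adjusted p = 3.81e-05). Srd5a1, a steroid reductase gene, rose by 1.17 ± 0.22 (edgeR adjusted p = 0.0128), and without Ad-EGFP replicate 3 its value was 1.10 but no longer called (edgeR adjusted p = 0.0536, with 0.00124 to 0.0536 over all left-out libraries). Slc27a5, which activates bile acids for conjugation, rose by 0.60 ± 0.13 (edgeR adjusted p = 0.0116) and Hsd17b12, a hydroxysteroid dehydrogenase gene, by 0.48 ± 0.10 (edgeR adjusted p = 0.00942). The number higher was 5 without Ad-Dyrk1b replicate 1 or 2 and 4 without Ad-EGFP replicate 3. Without any of these 3 libraries in turn, 0 were lower. The lower gene was Cyp39a1, at a log2 fold change of -0.478 to -0.373 over the 13 alternative fits.

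Profiles over the 6 libraries were compared as log2 CPM centred per gene, by the root mean square difference, over 11288 genes with a mean of at least 1 FPKM. For Sult2a1 the nearest genes outside the family were Slc25a45 (0.0929), Dclk3 (0.103) and Mbl1 (0.120), against a median of 0.640 over all genes. The nearest genes are by selection the smallest distances, so they had to lie under the median. Sult2a5 was nearer still, at 0.0528, but 16.6% of its 100-base windows also occur in another gene, so that likeness is uncertain. Sult2a8 and Sult2a2 were farther from Sult2a1, at 0.219 and 0.222. Sult2a3, Sult2a7, Sult3a2 and Sult3a1 lay beyond the median, at 0.736, 1.47, 1.58 and 2.07. For Sult2a2 the nearest genes outside the family were Dhcr7 (0.0699), Plpp5 (0.0717) and Icosl (0.0758), with a median of 0.467. For Sult2a8 they were Igfbp5 (0.0651), Hsd11b1 (0.0733) and Sdr9c7 (0.132), with a median of 0.804.

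Markers of other cells were read beside these values, with 7.36% of all tested genes called higher and 4.81% lower. Of the 10 hepatocyte markers, 9 were found. They summed to 68403, 75186 and 85576 CPM in Ad-Dyrk1b livers and 89737, 86458 and 87465 CPM in Ad-EGFP livers, lower in each Ad-Dyrk1b liver, though 0 of 9 were called. The 8 bile duct markers summed to 437, 392 and 319 CPM in Ad-Dyrk1b livers and 203, 251 and 241 CPM in Ad-EGFP livers, and of 7 tested 1 was higher, Spp1. The 13 T and NK cell markers summed to 78.0, 49.2 and 63.0 CPM in Ad-Dyrk1b livers and 33.0, 45.4 and 39.1 CPM in Ad-EGFP livers, and of 11 tested 3 were higher, Gzmb, Trbc2 and Gzma. The bile duct and the T and NK cell sums were higher in each Ad-Dyrk1b liver than in any Ad-EGFP liver. The 10 Kupffer cell and monocyte markers summed to 912 to 1200 CPM in Ad-Dyrk1b and 615 to 1228 CPM in Ad-EGFP livers, with 2 of 9 tested higher (Cd68 and Ly6c2), without a gap between the groups. The 12 endothelial and stellate markers summed to 424 to 624 CPM in Ad-Dyrk1b and 386 to 560 CPM in Ad-EGFP livers, with 0 called. The 10 markers of small intestine epithelium summed to 1275, 1423 and 2932 CPM in Ad-Dyrk1b livers and 641, 790 and 988 CPM in Ad-EGFP livers. Sis and Cdx1 were at 0 in all libraries, and 0 of 4 tested were called. Apoa4, an apolipoprotein gene that liver also expresses, had 968 ± 513 FPKM with Ad-Dyrk1b and 385 ± 93.7 FPKM with Ad-EGFP (SD, n = 3 each; edgeR adjusted p = 0.0830). The part of these cell markers in the members' values was not tested.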

How the data were processed

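Enriched mRNA of 6 mouse livers, 3 Ad-Dyrk1b and 3 Ad-EGFP, was sequenced on an Illumina NovaSeq from NEBNext Ultra libraries, per the labels' protocols. Per the file headers, the authors deposited raw whole-number counts and FPKM values for each gene and liver. The deposited table also held the authors' mean FPKM, their log2 ratio, a p-value and an adjusted p-value, per the file headers, of which only the entry for Sult2a4 is quoted. Per the submitters' processing notes the build was mm10 and DESeq2 was used. Not given in the sources used here are the aligner, the counting tool, the annotation and the strand setting.

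Groups were taken from the treatment label. Counts were tested with edgeR 4.0.16 (R 4.3.3), using TMM, a robust quasi-likelihood F-test (two-sided) and Benjamini-Hochberg adjustment over the 13201 genes that passed filterByExpr (minimum count 10, minimum total 15). Values after ± are standard errors for log2 fold changes and SDs for levels. The fit was tested on simulated counts, where it called 78.8% of genes changed 2-fold and 93.9% of those changed 4-fold. Of the calls on simulated counts 7.10% were false, at the adjusted p threshold of 0.05. Family sums used CPM of summed counts, without a test. Coordinates came from GENCODE M21, in which 22219 of 22274 identifiers were found. The members and lists were chosen with earlier results of these data known, so no list was tested as a set.

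Named genes are all 10 members, up to 4 tested genes of each pathway list with the smallest p, called neighbours, the 3 most alike genes for each of the 3 most abundant members, and Dyrk1b. One gene that this rule names is not reported here. Nr1i3, Obox8, Lig1, Pla2g4c, Zswim9, Apoa4, Gadd45b, Slc22a27, Hsd3b2, C6, Cyp39a1 and the called markers lie outside this rule and were picked with their values in view. Of 47 other named genes looked up, 7 overlap another protein-coding gene (Sult1a1, Slc26a1, Nr1i3, Elovl3, Hsd11b1, Srd5a1 and Lig1), so their counts are uncertain without a known strand setting. Zswim9 is the gene that overlaps Lig1, and Pla2g4c, Hsd3b2, C6 and Cyp39a1 were not looked up. PCR copies of a molecule are not independent, so the intervals cover counting error only. Alternatives were DESeq2 1.42.0, its size factors in edgeR, limma 3.58.1 (voom, and trend on log2 FPKM with pseudocounts 1 and 0.1), no filter, a replicate block and leaving out each library.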

Additional observations from a re-analysis of the deposited data

How the results depend on the processing

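The 8 tested members kept their direction and their calls under all 13 alternatives, with the highest adjusted p at 0.0293, for Sult3a1. All alternatives drew on the same 6 libraries. Sult2a7, Sult3a1 and Sult3a2 could be tested only because they were high in Ad-Dyrk1b livers, so their kept calls are descriptions. Over the alternatives the log2 fold change ranged from 1.0 to 1.29 for Sult2a1, 0.70 to 0.93 for Sult2a2, 2.09 to 2.93 for Sult2a3, 0.98 to 1.27 for Sult2a5, 2.71 to 4.78 for Sult2a7, 1.36 to 1.68 for Sult2a8, 3.28 to 6.30 for Sult3a1 and 2.42 to 5.50 for Sult3a2. The lowest values of Sult2a3, Sult2a5, Sult2a7, Sult2a8, Sult3a1 and Sult3a2 came from log2(FPKM + 1), a scale that by construction understates low genes. The Sult2a sum gave 0.82 to 1.03 and the Sult3a sum 4.93 to 5.99.

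By DESeq2, 14 target genes of CAR and PXR were higher. The number of all genes called also moved, and the cause was not tested. With limma on log2 FPKM, 553 (pseudocount 0.1) and 556 (pseudocount 1) genes were higher. Leaving out 1 library gave 612 to 800 higher and 294 to 461 lower genes. The lowest were 612 without Ad-Dyrk1b replicate 2, 615 without Ad-EGFP replicate 1 and 641 without Ad-EGFP replicate 3 for higher genes. For lower genes 381, 326 and 396 were left without Ad-Dyrk1b replicates 1, 2 and 3, and 294 and 414 without Ad-EGFP replicates 1 and 3. Over the pathway lists together, 41 genes were higher and 7 lower, and leaving out 1 library gave 26 to 43 higher and 3 to 5 lower.

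Same-numbered libraries of the groups deviated together at correlations of 0.0245, 0.172 and 0.108, and differently numbered ones at -0.207 to 0.0845. The labels do not say that a number marks a shared animal or day, so the numbers were not taken as pairs. With the replicate number as a block 1109 genes were higher and 774 lower, and the 8 members kept their calls, at log2 fold changes of 0.80 (Sult2a2) to 5.81 (Sult3a1). With the block Ahr was called lower (edgeR adjusted p = 0.0313) and Cish higher (edgeR adjusted p = 0.0225), Clvs2 was no longer called (edgeR adjusted p = 0.0529), and 2 nuclear receptor genes were lower, Ahr and Ppara.

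Control counts of Sult3a1, Sult3a2 and Sult2a7 were at most 11 per library, so their folds carry wide counting intervals. Exact shared windows do not cover near matches with sequencing errors.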
